A study of Homo sapiens with 18 samples.

Results

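The narrow MYC sites described here are 3807 stretches of the genome that MYC ChIP-seq called both in scramble control cells and after knockdown of the histone methyltransferase G9a. They were chosen from the authors' peak calls alone. Peaks on chromosomes 1 to 22 of the 9 deposited MYC peak lists were joined into regions if they shared 1 bp or more, and such a region was taken when it was under 1000 bp wide and held a peak in 8 of those lists. The 8 lists were replicates 2 and 3 of the first G9a hairpin, all 3 replicates of the second and all 3 scramble replicates. The 3807 sites stood among 42343 merged regions, of which 40556 were narrow, and 1384 wider regions were also called in all 8 lists. Because the calls chose the sites, every comparison of shG9a with shSCR given here describes the same lists and carries no test.

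All cells were MCF10A, an immortalised breast epithelial line, made to overexpress MYC from pBABE-hygro-MYC and to carry the activated PI3K allele of pMN-IRES-GFP-PI3KH1047R. The last plasmid, pLKO-tetON-puro, held hairpin shG9a 1 (here shG9a_1), hairpin shG9a 4 (shG9a_4) or the scramble hairpin (shSCR), and 2 µg/mL doxycycline was given for 72 h in every group to induce it. Chromatin was precipitated with the homemade MYC antibody N262, and the series design names the 3 replicates of a group as biological. The antibody cannot tell the introduced MYC from the cell's own, and the level of G9a after knockdown was not analysed here, so shG9a stands for cells that carried an induced hairpin against G9a. The 9 DNA input samples were not used here other than through the background in the authors' peak values.

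MYC pairs with MAX and binds DNA at E-box sequences, mostly near active promoters and enhancers, and at high MYC levels it also occupies weaker sites. G9a, also called EHMT2, adds methyl groups to lysine 9 of histone H3, a mark of silenced genes, and has been described as a partner of MYC in gene repression. The series asks how lowering G9a affects where MYC binds. A narrow site called with and without the knockdown lets the strength of binding be followed at 1 position, through the authors' fold enrichment at the summit and through the order of the sites within a list.

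The lists differed in length and depth before any site was considered. On chromosomes 1 to 22 they held 11309 and 12896 peaks in shG9a_1 replicates 2 and 3, 11044, 17206 and 12751 in shG9a_4, and 29307, 34051 and 19781 in shSCR. The list of shG9a_1 replicate 1 held 111 peaks and stood apart from all others, and it was not used to choose the sites. Read totals are not in the lists, and depth was recovered from the peak values as a multiple of the average shSCR depth. It was 0.839 and 1.09 in shG9a_1 replicates 2 and 3, 1.90, 1.05 and 2.65 in shG9a_4 and 1.04, 1.04 and 0.926 in shSCR. For shG9a_1 replicate 1 it came out at 2.36. The estimate uses a list's shortest peak, 51 bp there and 130 to 157 bp in the other lists, so that value is uncertain. Replicates 1 and 3 of shG9a_4 were thus the deepest of the 8, and no list had the same peak as another with identical values. No scale shared between lists was among the values used, so a shift common to all sites and a difference between immunoprecipitations cannot be told apart.

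Of the 12233 narrow regions called in all 3 shSCR lists, 3807 (31.1%) were called in all 5 shG9a lists, against 1384 of 1764 wide ones (78.5%). Merged width spans the peaks of every list in a region, so these shares are not independent of how width was defined. The merged sites were 239 to 999 bp wide, with a median of 626 bp, and 2726 of them held a single peak in every list. They lay far from each other, with a median of 88828 bp to the nearest other site, and 535 (14.1%) had another within 10000 bp. Sites were found on every chromosome of the 22, from 56 on chromosome 18 to 449 on chromosome 1. The share of narrow shSCR regions that were also called throughout shG9a was 26.3% on chromosome 18 and 37.2% on chromosome 16, the lowest and the highest.

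Fold enrichment at these sites was lower in the shG9a lists than in the shSCR lists. In this caller's output, fold is the fragment pileup at the summit plus 1, divided by the local background plus 1, so it measures height over background and not the number of bound molecules. Its median over the 3807 sites was 7.82 and 8.71 in shG9a_1, 7.58, 10.5 and 8.42 in shG9a_4, and 12.3, 14.8 and 11.6 in shSCR. Each shG9a list had a lower median than each shSCR list, and the narrowest gap was between 10.5 in shG9a_4 replicate 2 and 11.6 in shSCR replicate 3. The 1384 wide regions showed the same order of medians, at 9.24 and 10.4 in shG9a_1, 8.71, 12.2 and 10.2 in shG9a_4 and 14.3, 17.0 and 14.3 in shSCR.

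**Figure D1:**
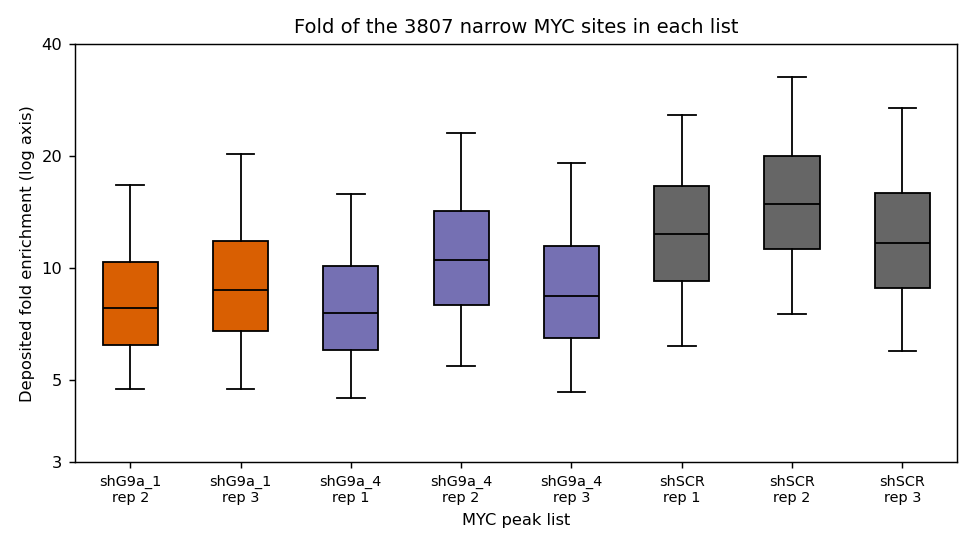
Deposited fold enrichment (log axis) of the 3807 narrow sites in each of the 8 lists, shG9a_1 and shG9a_4 left of shSCR. The medians of the 5 shG9a lists, 7.58 to 10.5, sit below those of the 3 shSCR lists, 11.6 to 14.8, while the spreads overlap widely.

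Site by site, the difference of mean log2 fold, shG9a minus shSCR, had a median of -0.57 (quartiles -0.78 and -0.36), a ratio of 0.674. It was below 0 at 3636 sites (95.5%), against 96.2% of the 5191 regions of any width called in all 8 lists. All 5 shG9a lists lay below all 3 shSCR lists at 1027 sites (27.0%), against 28.0% of those 5191 regions, and above all 3 at 3 sites, against 0.0578%. The difference reached -1 or less at 292 sites (7.67%, against 7.07%). The 5191 regions include the 3807 sites. Of the 1384 wide regions alone, 98.1% were below 0, 30.9% had every shG9a list below every shSCR list, 0 had every shG9a list above, and 5.42% reached -1 or less. Whether narrow and wide regions differ was not tested. The individual differences ran between -1.65 and 0.66.

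**Figure D2:**
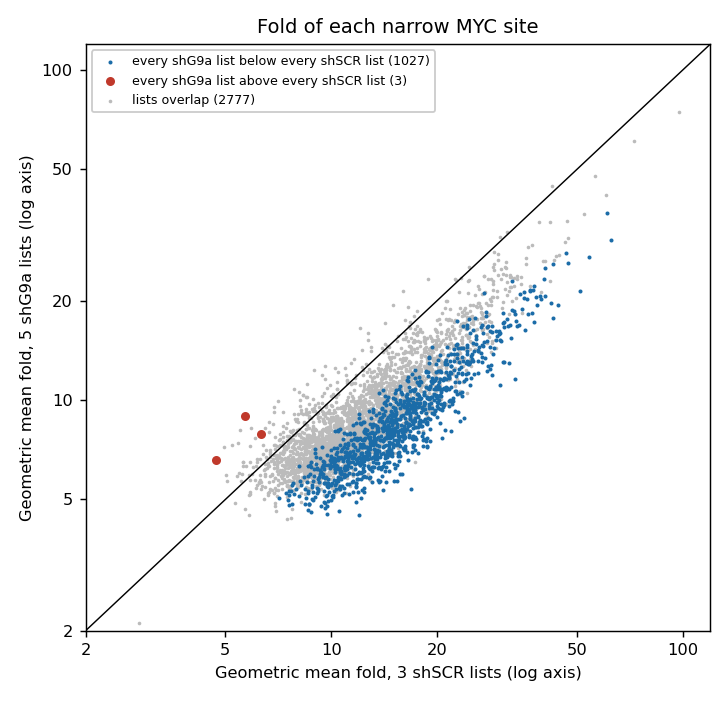
Geometric mean fold of each narrow site over the 5 shG9a lists (vertical) against the 3 shSCR lists (horizontal), both on log axes. The 1027 sites with every shG9a list below every shSCR list and the 3 with every shG9a list above are coloured, and most of the cloud lies under the line of equal fold.

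How far a list stood below shSCR differed between libraries of the same hairpin. The median log2 difference from the shSCR mean was -0.67 and -0.51 in shG9a_1 replicates 2 and 3 and -0.72, -0.28 and -0.57 in shG9a_4 replicates 1 to 3. A list lay below every shSCR list at 2820 sites in shG9a_1 replicate 2 (74.1%, against 76.0% of the regions of any width) and at 2384 in replicate 3 (62.6%, against 63.9%). In shG9a_4 the counts were 2926 in replicate 1 (76.9%, against 78.8%), 1685 in replicate 2 (44.3%, against 45.0%) and 2548 in replicate 3 (66.9%, against 67.5%). Replicate 2 of shG9a_4 was the nearest to shSCR. Without it, the sites with every shG9a list below every shSCR list numbered 1567, and without shSCR replicate 3 they numbered 1663, against 1027 with all lists. A rule over fewer lists is easier to meet, so both counts can be larger for that reason, and neither was made over the regions of any width. At 254 sites no shG9a list was below every shSCR list, a count not made over the regions of any width.

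Division of each fold by its list's median over these sites left little of the difference. The median of the site differences was then 0.020, close to 0 as that scaling makes it. Every shG9a list was then below every shSCR list at 73 sites, against 1.68% of the regions of any width, and above at 123, against 3.39%. These 73 and 123 sites were 1.92% and 3.23% of the 3807. The 1027 sites are counted on the unscaled values, and most of them overlapped between the groups once the shift of each list was taken out.

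Fold can differ through the pileup or through the background, so both were recovered from the authors' fold and p-values. The median pileup at the summit was 12 and 16 fragments in shG9a_1, 17, 19 and 22 in shG9a_4 and 24, 30 and 20 in shSCR, with overlap between shG9a_4 and shSCR. The median local background was 0.612 and 0.806 fragments in shG9a_1, 1.24, 0.797 and 1.49 in shG9a_4, and 0.956, 0.997 and 0.719 in shSCR. In shG9a_1 the lower fold went with a lower pileup, with a mean log2 difference of -0.71 for pileup plus 1 and -0.11 for background plus 1. In shG9a_4, with its 2 deep libraries, it went with a smaller difference in pileup, -0.29, and a higher background, 0.25.

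Each pileup was also divided by the lowest background of its list, which allows for depth only as far as that recovered background follows it. That quantity had medians of 32.4 and 33.2 in shG9a_1, 21.4, 39.8 and 21.3 in shG9a_4 and 53.6, 61.5 and 49.0 in shSCR. The shG9a lists were again all below the shSCR lists, and here the gap between the groups was wider than for fold. The median log2 difference was -0.89. It was below 0 at 3796 of 3807 sites (99.7%, against 99.9% of the wide regions). Every shG9a list lay below every shSCR list at 2050 sites (53.8%, against 56.0% of the regions of any width). No site was higher in every shG9a list by this quantity, as was also so over the regions of any width (0%). Of the 1027 sites set apart by fold, 906 (88.2%) were also apart by pileup over background.

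**Figure D3:**
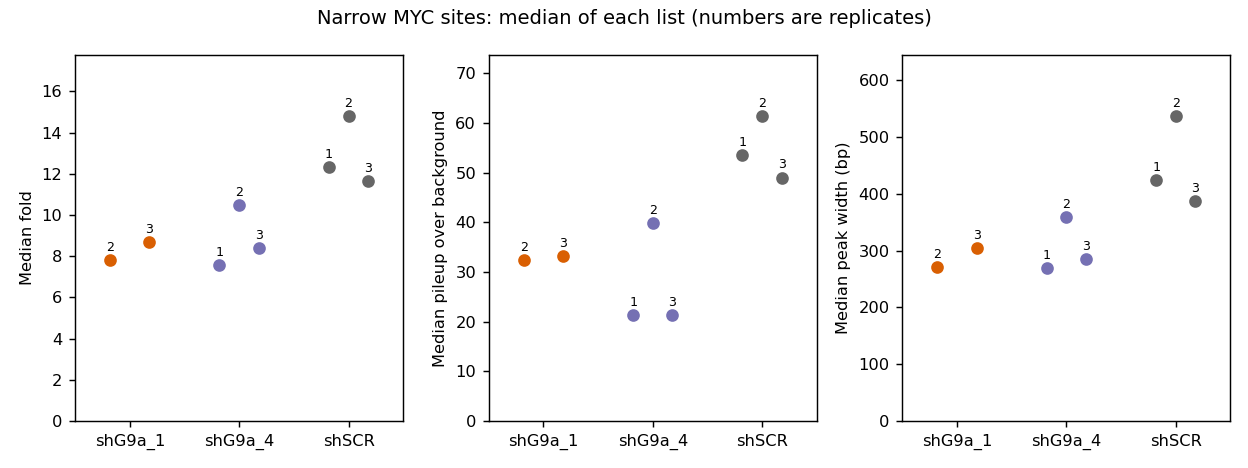
Median over the 3807 sites in each list of fold, of pileup over background and of peak width in bp, with shG9a_1 and shG9a_4 left of shSCR and numbers marking replicates. Fold lies between 7.58 and 10.5 in shG9a and 11.6 and 14.8 in shSCR, and the shG9a lists are also below the shSCR lists for pileup over background and for peak width.

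The 10 strongest sites, by mean fold in shSCR, lay on 9 chromosomes and had a mean fold of 22.2 to 76.1 in shG9a and 47.6 to 101 in shSCR. In shG9a all 10 had a lower mean log2 fold, with differences of -1.26 to -0.23. At 5 of them the lists of the groups did not overlap. The choice by high shSCR fold itself favours a lower value in shG9a. Of all 3807 sites, 95.5% were below 0 and 27.0% had every shG9a list lower. Of the regions of any width, 96.2% and 28.0% did. The first was chr7:4681220-4682114 (hg19, as are all positions here), 895 bp wide, with fold 64.1 and 92.9 in shG9a_1, 60.6, 92.0 and 71.0 in shG9a_4 and 64.9, 118 and 121 in shSCR. The groups overlapped there, since shSCR replicate 1 had a fold within the range of the shG9a lists. Its pileups, 122 and 175 in shG9a_1, 168, 174 and 176 in shG9a_4 and 188, 238 and 183 in shSCR, did not overlap, and it was the first of all sites in 7 of the 8 lists and the second in shSCR replicate 1.

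A pair of the other strong sites shows the range. At chr17:42147795-42148704 fold was 59.3 and 75.6 in shG9a_1, 54.1, 56.9 and 60.3 in shG9a_4 and 79.8, 58.4 and 83.2 in shSCR, with overlap between the groups and a log2 difference of -0.26. At chr16:21531382-21532266 it was 27.9 and 41.0 in shG9a_1, 22.98, 45.6 and 22.6 in shG9a_4 and 63.9, 55.7 and 69.1 in shSCR, with every shG9a list lower and a log2 difference of -1.03. The mean there was 32.0 ± 10.7 (SD, n = 5) in shG9a and 62.9 ± 6.76 (SD, n = 3) in shSCR. The lowest of the shSCR values there was thus above the highest of shG9a. Of the 10, the difference nearest 0 was at chr20:37063260-37064213, with 40.3 and 57.2 in shG9a_1, 48.3, 65.1 and 34.7 in shG9a_4 and 50.1, 65.1 and 54.3 in shSCR, a difference of -0.23. Of the 10, chr8:134387742-134388733 had the most negative difference, -1.26, with fold 25.5 and 19.4 in shG9a_1, 15.2, 33.2 and 17.7 in shG9a_4 and 64.6, 54.9 and 37.8 in shSCR. No shG9a list reached the lowest shSCR value at that site.

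A further 3 of the strong sites were apart between the groups. They were chr7:22893676-22894358, with a log2 difference of -0.73, chr1:222638708-222639412, with -0.999, and chr19:6279943-6280447, with -0.86. At chr22:37957697-37958603 (-0.53) and chr11:9780901-9781832 (-0.52) the groups overlapped. Of the 10, 7 were apart by pileup over background, all lower in shG9a.

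The 10 sites named for the most negative difference were taken from the 1027 sites without overlap, so they are the extremes of these same values. Their log2 differences ran from -1.65 to -1.41, with mean fold of 4.51 to 12.4 in shG9a and 12.4 to 33.5 in shSCR. The most negative was chr12:26266811-26267619, with fold 4.96 and 4.26 in shG9a_1, 5.79, 6.39 and 5.75 in shG9a_4 and 19.9, 16.1 and 15.0 in shSCR and means of 5.43 ± 0.826 (SD, n = 5) in shG9a and 17.0 ± 2.59 (SD, n = 3) in shSCR. Pileups were 7 and 11 in shG9a_1, 12, 10 and 12 in shG9a_4 and 29, 34 and 23 in shSCR, so the highest shG9a pileup was 12, against 23 for the lowest of shSCR. In mean rank among the 3807 sites it stood at 3352 in shG9a and at 1072 in shSCR.

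The next were sites of higher fold in shSCR. At chr7:915614-916446 fold was 8.09 and 19.2 in shG9a_1, 8.63, 9.56 and 16.2 in shG9a_4 and 28.7, 35.6 and 36.2 in shSCR, and the highest shG9a list was below the lowest shSCR list. At chr4:166795872-166796274, 403 bp wide, it was 7.79 and 14.1 in shG9a_1, 12.5, 12.3 and 10.0 in shG9a_4 and 34.8, 37.0 and 21.5 in shSCR. Both sites ranked high in shSCR, at a mean rank of 101 and 181, and stood at 1177 and 1138 in shG9a. The rest were chr7:1570611-1571244, chr2:183988932-183989829, chr14:92338842-92339228, chr17:7199523-7199986, chr3:98827412-98827777, chr4:8102924-8103458 and chr3:189302433-189302969. Pileup over background also set 9 of the 10 apart. The exception was chr3:189302433-189302969, where pileups were 12 and 11 in shG9a_1, 13, 25 and 20 in shG9a_4 and 17, 44 and 26 in shSCR.

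Every shG9a list had a higher fold than every shSCR list at 3 sites, all of low fold in shSCR. At chr2:152159513-152159768, 256 bp wide, fold was 8.57 and 7.20 in shG9a_1, 10.5, 7.71 and 11.6 in shG9a_4 and 4.89, 5.61 and 6.71 in shSCR, a log2 difference of 0.66. At chr12:49110110-49111015 it was 5.52 and 8.10 in shG9a_1, 5.63, 7.79 and 6.41 in shG9a_4 and 4.63, 5.25 and 4.24 in shSCR (0.49). At chr5:68389617-68390291 it was 6.78 and 11.7 in shG9a_1, 6.63, 8.35 and 6.91 in shG9a_4 and 6.60, 6.26 and 6.06 in shSCR (0.32). None of these 3 sites was apart by pileup over background, for which the log2 differences were 0.26, -0.18 and -0.40. At the second, pileups were 7 and 11 in shG9a_1, 14, 13 and 15 in shG9a_4 and 11, 10 and 9 in shSCR, with overlap, and the background was 0.450 and 0.482 in shG9a_1, 1.67, 0.797 and 1.49 in shG9a_4 and 1.59, 1.096 and 1.36 in shSCR. The sites with every shG9a list higher numbered 5 without shG9a_4 replicate 1, and 8, 15 and 8 without shSCR replicates 1, 2 and 3. A rule over fewer lists is easier to meet, so these counts can be larger for that reason. They were not made over the regions of any width.

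**Figure D4:**
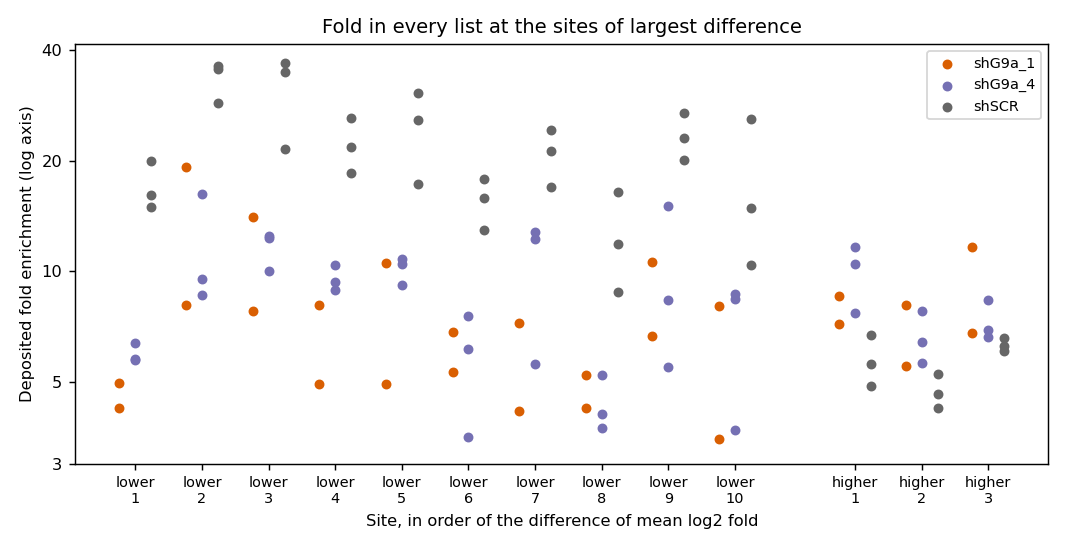
Deposited fold (log axis) in each of the 8 lists at the 10 sites of most negative difference and the 3 sites with every shG9a list higher, shG9a points left of shSCR points. The shG9a and shSCR points of a site do not overlap at any of the 13, because sites without overlap were taken.

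The difference did not change steadily with the strength of a site. The sites were split into 5 classes by mean fold over all 8 lists, weakest first, so that neither group alone set the order. The median log2 difference was -0.47, -0.55, -0.61, -0.64 and -0.59 from the weakest to the strongest class. The share with every shG9a list below every shSCR list was 21.4%, 25.0%, 27.3%, 31.8% and 29.4%. Over the regions of any width this share was 28.0%, and it was not counted by class there. Both measures were furthest from 0 in the fourth class and nearest in the weakest. For pileup over background the medians were -0.81, -0.86, -0.91, -0.93 and -0.91, a narrower range in the same order. A peak had to be called to be counted, so a weak site that dropped under the caller's limit in any list is not among the 3807.

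The order of the sites was compared next. Sites were ranked by fold among the 3807 within each list, with 1 the strongest, so that a shift common to a list leaves the ranks alone. The mean rank over the lists of a group moved by a median of 363 places, or 9.53% of the sites, between shG9a and shSCR. Ranks also differed between replicates, with a median SD of 550 places over the shSCR lists. Between single lists the median rank difference was 582.5 to 602 places within shSCR and 592 to 696.5 within shG9a. It was 585 to 672 between shG9a and shSCR lists. Between single lists, the differences between the groups thus lay within the span of those within the groups. The move of 363 places is between means over lists, which vary less than single lists do. It cannot be set against these values, and no like measure between replicates was made. At 362 sites (9.51%) the mean rank moved by more than 25% of the ranks, a count not made over the regions of any width. Of the 381 sites in the top 10% in shG9a, 267 (70.1%) were also in the top 10% in shSCR, and 1 site of the shSCR top 10% was in the lower 50% in shG9a. The bottom 10% of both groups shared 145 sites.

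**Figure D5:**
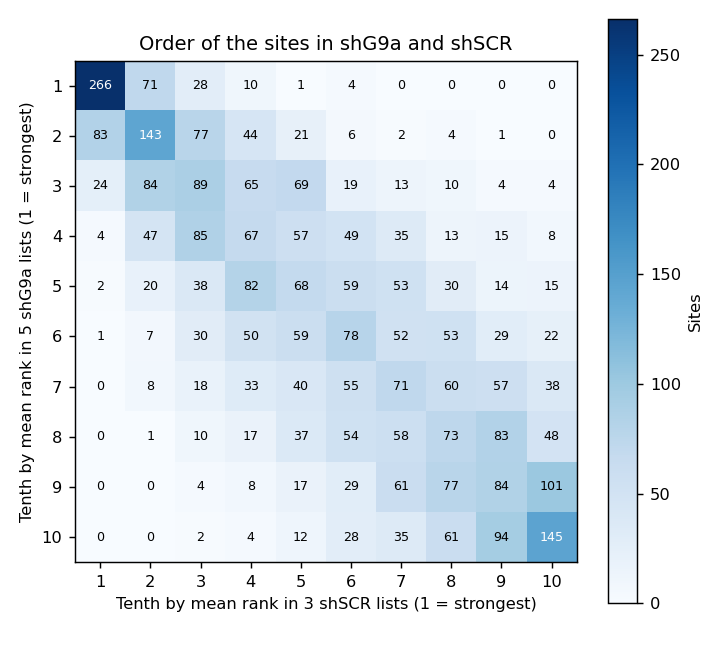
Number of narrow sites in each of 10 equal classes by mean rank in the 5 shG9a lists (vertical) and in the 3 shSCR lists (horizontal), class 1 holding the strongest sites. The counts gather along the diagonal and most tightly at its strong end, where 266 sites are in class 1 of both groups.

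Ranks agreed about as well between shG9a and shSCR lists as between shG9a lists. Spearman's rho over the 3807 sites was 0.516 to 0.613 over the 15 pairs of an shG9a with an shSCR list, 0.506 to 0.592 over the 10 pairs of shG9a lists and 0.599 to 0.629 over the 3 pairs of shSCR lists. These values describe sites that share a library, its depth and the local background, and they carry no p-value. Over the 1384 wide regions rho was 0.667 to 0.740 between shG9a and shSCR lists. Across whole lists, where list length also counts, the percentile of a site was lower in shG9a at 3469 sites (91.1%). It was counted at these sites alone, and the median difference was -13.8 points. That percentile had medians of 70.4 and 74.5 in shG9a_1, 69.0, 81.1 and 74.1 in shG9a_4 and 88.5, 90.6 and 83.7 in shSCR.

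Some sites stayed at the head of every list. The first 100 ranks of all 8 lists had 10 sites in common, the top 10% of all 8 lists had 66, the upper 50% had 614 and the lower 50% had 461. Besides 7 sites already named for their strength in shSCR, the 10 were chr5:81573636-81574605, chr1:158985089-158985599 and chr6:114292006-114292999. The first of these ranked 40 and 18 in shG9a_1, 6, 4 and 17 in shG9a_4 and 22, 9 and 21 in shSCR. These sites were picked after their values were seen.

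Every shG9a rank was behind every shSCR rank at 75 sites, against 1.77% of the regions of any width, and ahead at 103, against 2.66%. These were 1.97% and 2.71% of the 3807 sites. The largest move towards lower ranks without overlap was at chr12:26266811-26267619, described above, with ranks 3529.5 and 3724.5 in shG9a_1, 2934.5, 3383 and 3187 in shG9a_4 and 537, 1594 and 1083.5 in shSCR. The next was chr1:45792410-45793025, with ranks 3636.5 and 3676.5 in shG9a_1, 2725.5, 2881 and 2410.5 in shG9a_4 and 1725.5, 1188.5 and 879.5 in shSCR and fold 4.69 and 4.53 in shG9a_1, 6.16, 7.82 and 7.38 in shG9a_4 and 12.8, 18.4 and 16.3 in shSCR. The largest move ahead was at chr14:81397064-81397585, with ranks 1156 and 898.5 in shG9a_1, 667, 812.5 and 494.5 in shG9a_4 and 3318, 3039 and 2810.5 in shSCR. Its fold was 9.47 and 12.2 in shG9a_1, 11.3, 15.0 and 14.4 in shG9a_4 and 7.67, 10.4 and 8.90 in shSCR, which overlapped between the groups, so its rank moved while its fold did not separate. All 3 were chosen after their values were seen.

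Both hairpins were then read site by site against the same 3 shSCR lists, so the results of the hairpins are not independent of each other. The median log2 difference was -0.60 for shG9a_1 minus shSCR, below 0 at 3622 sites (95.1%, against 95.6% of the regions of any width). For shG9a_4 minus shSCR it was -0.53, below 0 at 3570 sites (93.8%, against 94.5%). The difference was below 0 in both hairpins at 3465 sites (91.0%, against 91.8% of the regions of any width), in shG9a_1 alone at 157, in shG9a_4 alone at 105 and in neither at 80. With fold divided by its list's median over the sites, it was below 0 in both hairpins at 1183 of the 3807 sites. That scaled count was not made over the regions of any width.

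Counted by lists, both shG9a_1 lists were below all shSCR lists at 2025 sites (53.2%, against 54.8%) and above them at 8 (against 0.193%). All 3 shG9a_4 lists were below at 1313 sites (34.5%, against 35.3%) and above at 8 (against 0.154%). The shG9a_1 count rests on 2 lists and the shG9a_4 count on 3, so their sizes are not comparable. The 1027 sites in both made up 50.7% of the shG9a_1 sites and 78.2% of the shG9a_4 sites, against 51.1% and 79.5% over the regions of any width, and both counts use the same shSCR lists. A difference of -1 or less was seen at 567 sites in shG9a_1 (against 14.2% of the regions of any width), at 334 in shG9a_4 (against 8.32%) and at 136 in both (against 3.22%). After division by list medians, the lists of shG9a_1 were below those of shSCR at 370 sites (9.72%, against 9.44%) and above at 480 (12.6%, against 13.0%), and those of shG9a_4 were below at 206 (5.41%, against 5.03%) and above at 257 (6.75%, against 6.97%). By pileup over background, shG9a_1 was below at 2691 sites (70.7%, against 73.3%) and above at 4 (against 0.0963%), and shG9a_4 was below at 2428 (63.8%, against 65.4%) and above at 0 (against 0%). With only shG9a_4 replicate 2, the list of that hairpin nearest in depth to shSCR, the shG9a_4 median was -0.28 in place of -0.53.

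The hairpins were also set against each other, a comparison that uses no shSCR list. The median log2 difference of fold, shG9a_4 minus shG9a_1, was 0.058, less than the SD of 0.185 (log2) between the list medians of a group. All shG9a_4 lists were above both shG9a_1 lists at 454 sites (11.9%, against 11.8% of the regions of any width) and below them at 198 (5.20%, against 5.05%). Depth moved with this comparison. By pileup over background the median turned to -0.35, with 5 sites higher (against 0.135%) and 505 lower (against 12.9%) in shG9a_4. Of the 454 sites higher by fold, 4 were also higher by pileup over background and 13 were lower, so the order of the hairpins depends on how background is treated. Leaving out shG9a_1 replicate 2 gave -0.017 and leaving out shG9a_4 replicate 2 gave -0.061 for the median of fold.

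Single sites differed between the hairpins by more than this. At chr19:54711877-54712518 fold was 4.85 and 4.32 in shG9a_1, 9.23, 13.7 and 12.0 in shG9a_4 and 6.53, 9.22 and 8.26 in shSCR. Both shG9a_1 lists were below every shSCR list and all shG9a_4 lists were above every shSCR list, and this was the only site of the 3807 placed so. Pileups were 8 and 19 in shG9a_1, 19, 29 and 27 in shG9a_4 and 18, 22 and 14 in shSCR, and the background was 0.854 and 3.63 in shG9a_1, 1.17, 1.20 and 1.34 in shG9a_4 and 1.91, 1.496 and 0.815 in shSCR, highest in shG9a_1 replicate 3. By pileup over background the lists of the hairpins overlapped, with 21.6 and 39.4 in shG9a_1, 23.9, 60.8 and 26.2 in shG9a_4 and 40.2, 45.1 and 34.3 in shSCR. The remaining sites higher in shG9a_4 were chr8:129188862-129189527, chr3:43042559-43043040, chr19:39971229-39971863 and chr12:56511719-56512374, with log2 differences of 1.15 to 1.31, and none of the 5 was apart between hairpins by pileup over background.

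On the other side, 5 sites were named as lower in shG9a_4, with log2 differences of -1.12 to -0.91. At chr2:15731576-15732529 fold was 22.98 and 21.5 in shG9a_1, 9.94, 12.7 and 8.52 in shG9a_4 and 26.6, 45.2 and 19.3 in shSCR, so the shG9a_4 lists were below all others. Pileups there were 32 and 34 in shG9a_1, 31, 32 and 33 in shG9a_4 and 51, 76 and 34 in shSCR, nearly equal across the 5 shG9a lists, while the background was 0.436 and 0.627 in shG9a_1, 2.22, 1.59 and 2.99 in shG9a_4 and 0.956, 0.705 and 0.815 in shSCR. The others were chr16:8891134-8891953, chr12:122231834-122232427, chr19:49140454-49141280 and chr1:213031263-213032058. Of the 5, 3 were apart between hairpins by pileup over background. Over the 5 the median log2 difference of pileup plus 1 was -0.04 and that of background plus 1 was 1.07.

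The list of shG9a_1 replicate 1 took no part in choosing the sites. It called 53 of the 3807 (1.39%, Wilson 95% interval 1.07 to 1.82%), against 2.06% of the regions of any width. Of the wide regions it called 54 of 1384 (3.90%, 3.00 to 5.06%), and of 8426 narrow regions called in all shSCR lists but not in all 5 shG9a lists it called 0, which allows a share of up to 0.0356% by 3 counts of 8426 and has a Wilson upper limit of 0.0456%. All 107 regions of this list were called in the other 8, and the intervals cover counting error only. Its fold at the 53 sites was 4.50 to 19.1, with a median of 7.49.

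What it called were the strong sites. The 53 sites had a median fold of 33.3 in shSCR, against 12.6 at the other 3754, and 44 of them were in the shSCR top 10%. The highest fold in this list was 19.1 at chr7:4681220-4682114, followed by 12.3 at chr16:21531382-21532266, 9.94 at chr1:229761567-229762454 and 9.27 at chr20:37063260-37064213 and at chr5:138609605-138610588. At chr1:229761567-229762454 fold in the 8 lists was 14.1 and 19.6 in shG9a_1, 19.6, 19.4 and 26.2 in shG9a_4 and 23.8, 32.4 and 28.0 in shSCR. Below these came chr8:109260348-109261254, chr1:226005208-226005739, chr6:42847167-42848011, chr1:158985089-158985599 and chr17:36908350-36908965. By strength class over the 8 lists, the weakest first, the 53 were split as 0, 1, 0, 1 and 51.

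Summit positions varied little between the groups. The median distance of a list's summit from the mean of the shSCR summits (for an shSCR list, of the other shSCR summits) was 30.3 and 28.7 bp in shG9a_1, 28.0, 25.7 and 24.7 bp in shG9a_4 and 26.0, 26.0 and 27.0 bp in shSCR. Within 50 bp lay 68.2% to 74.3% of sites in the shG9a lists and 72.5% to 74.2% in the shSCR lists. At the 2726 sites with a single peak in every list, the outermost of the 8 summits were a median of 90 bp apart, and at 422 (15.5%) all 8 lay within 50 bp.

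Peaks were narrower in shG9a. The median peak width at the sites was 272 and 304 bp in shG9a_1, 269, 359 and 286 bp in shG9a_4 and 425, 538 and 388 bp in shSCR. Mean width in shG9a was a median of 0.713 of that in shSCR and was lower at 3717 sites (97.6%). That count was not made over the regions of any width. Every shG9a peak was narrower than every shSCR peak at 934 sites (24.5%, against 26.1% of the regions of any width). The ratio was 0.578 over the wide regions. Fold was lower at the same sites, and its part in the narrower peaks was not tested.

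Between chromosomes the difference of fold varied little. The median log2 difference was most negative on chromosome 10, at -0.64 over 161 sites, and nearest 0 on chromosome 14, at -0.53 over 104 sites. All 22 medians were negative for both hairpins. The share of sites with every shG9a list below every shSCR list was 17.6% on chromosome 12 and 39.1% on chromosome 13, where 25 of 64 sites were so placed. These are the lowest and the highest of the 22, and the share was 27.0% over all sites and 28.0% over the regions of any width. It was not counted by chromosome over the regions of any width, and differences between chromosomes were not tested.

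At the width limit the values of included and omitted regions ran together. The widest sites were chr10:73769149-73770147, 999 bp, chr1:180471340-180472337, chr18:19180013-19181010 and chr5:137688100-137689097, 998 bp each, and chr1:156710372-156711368, 997 bp. Their log2 differences of fold were -0.07, -0.65, -0.49, -0.50 and -0.39. The nearest regions over the limit, all 1000 bp, were chr17:40687909-40688908, chr17:43661784-43662783, chr21:46387612-46388611, chr8:41435359-41436358 and chr8:61591845-61592844, with -0.97, -0.12, -1.30, -0.67 and -0.60. All 10 were negative.

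At the other limit, a further 2002 narrow regions were called in exactly 7 of the 8 lists. The missing list was shG9a_1 replicate 2 at 637 and replicate 3 at 337, shG9a_4 replicates 1, 2 and 3 at 623, 94 and 252, and shSCR replicates 1, 2 and 3 at 16, 1 and 42. The missing list was thus an shG9a list at nearly all of them, and the shortest lists, shG9a_1 replicate 2 and shG9a_4 replicate 1, were missing most often.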

How the data were processed

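MYC ChIP-seq peak lists of 9 libraries were used, 1 list per library with replicates not pooled; the 9 inputs were not used. Per the submitters' processing notes, the tools were MACS2 2.1.0, Picard 2.7.1, STAR 2.5.2a and SAMtools 1.3, with hg19 and GRCh37 as builds. How MACS2 was set is not given in the sources used here. Each deposited peak has a score, a fold (a ratio of pileup plus 1 to local background plus 1 at the summit), a −log10 p-value, a −log10 q-value and a summit offset in bp, all the authors' values.

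Peaks were merged as described above, and the peak of highest fold stood for a list with several peaks in a region. Means of log2 fold were taken over lists, with nothing added to the deposited fold. Pileup and background were recovered from the fold and the p-value, assuming a Poisson caller, and 100% of pileups came out whole within 0.001 on the −log10 p scale. Pileup over background divides pileup by the lowest background shared by at least 1% of a list's peaks. Relative depth divides that background by the list's shortest peak. Non-overlap means every list of one group beyond every list of the other. The recovery of pileups, the choice of sites and the count of sites lower without overlap were checked on simulated lists. The ranking steps were not checked in that way. Python 3.11.15, pandas 2.3.3, numpy 2.4.6 and scipy 1.17.1 were used.

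The sites, classes and lists were chosen with earlier results of these data known, and no comparison was tested. Named sites were the 10 strongest in shSCR, up to 10 each of the most negative and most positive differences without overlap, 5 each way between hairpins, 5 on each side of the width limit and 10 called in shG9a_1 replicate 1. Genes near the sites, the planned gene lists and E-box content were not analysed here, because no annotation or genome of build hg19 was used. Alternatives were other peak and width limits, merging of 8 lists, median scaling, pileup over background, libraries of like depth and leaving out each list.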

Additional observations from a re-analysis of the deposited data

Results flagged for a closer look

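One site was placed on opposite sides of shSCR by the hairpins. At chr19:54711877-54712518 the mean log2 fold differed by -0.79 for shG9a_1 minus shSCR and by 0.53 for shG9a_4 minus shSCR, and by 1.325 between shG9a_4 and shG9a_1. Replicates 2 and 3 of shG9a_1 were below, and all shG9a_4 lists above, all 3 shSCR lists, and the difference between the hairpins was not tested. By pileup over background the lists of the hairpins overlapped there. The site was found by looking through all 3807 sites.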

How the results depend on the processing

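Of 67 values under other settings, 47 stayed within the limits set for the main value, 15 moved and 5 reversed. Those limits were wide, so staying within them does not mean that a value was unchanged. For example, 4893 sites at a width limit of 1500 bp, against 3807, counted as within them. So did a median rank move of 543 places by percentile in the whole list, against 363. Requiring a −log10 q of at least 5 left 2418 sites, of which 676 were lower in every shG9a list, 1 was higher and 2211 were lower in both hairpins. Allowing 7 of the 8 lists gave 5809 sites. With fold divided by its list's median over the sites, the median differences were 0.020 (shG9a minus shSCR), 0.039 (shG9a_1), 0.022 (shG9a_4) and -0.025 (shG9a_4 minus shG9a_1), which that scaling holds near 0. Of the 3807 sites, 73 were then lower, 123 higher and 1183 lower in both hairpins. By pileup over background the median differences were -0.89 for shG9a, -1.03 for shG9a_4 and -0.35 for shG9a_4 minus shG9a_1, with 2050 sites lower and 0 higher. Without shG9a_4 replicates 1 and 3, an alternative chosen after seeing the data, the medians were -0.28 for shG9a_4 and 0.32 for shG9a_4 minus shG9a_1, and 7 sites were higher. The 7 come from fewer lists, over which non-overlap is easier to meet.

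Leaving out 1 list at a time, shG9a minus shSCR ran from -0.64 to -0.48, shG9a_1 minus shSCR from -0.68 to -0.50, shG9a_4 minus shSCR from -0.66 to -0.43 and shG9a_4 minus shG9a_1 from -0.061 to 0.17. The last changed sign without shG9a_1 replicate 2 (-0.017) and without shG9a_4 replicate 2 (-0.061). There were 3808 to 4444 sites, 1091 to 1663 lower and 3 to 15 higher in shG9a, and 3172 to 3518 lower in both hairpins. Non-overlap is easier to meet over fewer lists, so the counts of 1091 to 1663 and 3 to 15 can be larger for that reason, as can the number of sites. The median move of mean rank was 367 to 412 places. No paired analysis was possible because no result comes from a test that could take a replicate block. That reason covers tests only: differences of fold within a replicate number could have been described, and they were not computed. Low pileups limit single sites: a median of 12 to 30 fragments stood at a summit. The causes of these changes were not tested.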
